A study of Homo sapiens with 9 samples.

Results

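The 2 windows of hg19 chromosome 6 described here, 6:26015000 to 26290000 and 6:27770000 to 27870000, were chosen as the histone gene cluster. Their members are the 156 peaks of 5 CUT&RUN peak lists whose midpoint lies in either window, of 183634 peaks in all: 44 of 12834 H3K4me3 peaks, 0 of 7445 BRG1 peaks, 5 of 19893 RUNX1 peaks, and 53 of 90495 and 54 of 52967 H3K27ac peaks in DMSO and ACBI. The windows span 275.0 and 100.0 kb. They were set by position and not by a peak value, but they were chosen with earlier results of these data known. All libraries came from DND-41, a line of human T-cell acute lymphoblastic leukemia grown in culture. The H3K4me3, BRG1 and RUNX1 libraries carry no treatment label, and H3K27ac was profiled after 100 nM ACBI-1 (ACBI in what follows) or its vehicle DMSO, with 1 library per target and condition. There is thus no replicate check of any difference, no test was made, and the exact Clopper-Pearson 95% intervals cover counting error of peaks only. The intervals take each peak as independent, which close neighbours may not be.

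The large histone gene cluster of chromosome 6 holds most of the genes for the replication-dependent histones, the proteins on which DNA is wound. These genes are short and lack introns, and cells transcribe them at high levels during S phase to package newly made DNA. H3K4me3 marks the promoters of active genes and H3K27ac marks active promoters and enhancers. BRG1, encoded by SMARCA4, is an ATPase that drives the SWI/SNF chromatin remodeling complexes. RUNX1 is a DNA-binding factor of blood lineages, and ACBI-1 degrades the SWI/SNF ATPases and the subunit PBRM1.

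RefSeq lists 66 genes on chromosome 6 with an older symbol that starts with HIST1, 55 of them coding: 6 for the linker histone H1, 12 for H2A, 15 for H2B, 10 for H3 and 12 for H4. The H2A, H2B, H3 and H4 proteins form the core of the nucleosome, and H1 binds the DNA that enters and leaves it. The run of histone genes is broken in RefSeq by 4 other coding genes between H2BC1 and H1-1 and by 1 between H1-2 and H4C3. It is also broken between H4C8 and H2BC11 by 9 other coding genes, among them 6 butyrophilin genes, and between H2AC12 and H2BC13 by 5 others, including ZNF391 and ZNF184. This table is of GRCh38.p14, while the peaks are in hg19, so peaks carry no gene names here and whether each lies at a histone promoter was not determined here. For the same reason the markers of T-cell leukemia were not checked at their genes.

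The table of RefSeq promoters held 54 promoters for 50 of the 55 coding genes. These genes were taken by symbol over the whole chromosome and not by window, so some of them can lie outside the windows. The 250 bases before each start were searched on both strands for TGTGGT (the core of the RUNX motif), CCAAT (the CCAAT box), TATAAA (the TATA box) and ATTTGCAT (the octamer, the letters bound by OCT1). To show what these promoters look like, 1 is printed per histone class: the first in chromosome order that holds the RUNX core, or, for H1, where none does, the first of the class. They are written 5′ to 3′ on the strand of the gene, with every match in capitals on either strand, so that a CCAAT box on the other strand reads ATTGG and a RUNX core on the other strand reads ACCACA. In GRCh38.p14 they lie at chr6:26017788-26018037 (H1-1, minus strand), chr6:26199294-26199543 (H2AC7, minus), chr6:25726527-25726776 (H2BC1, plus), chr6:26032100-26032349 (H3C2, minus) and chr6:26189113-26189362 (H4C4, minus), which are not to be set beside the hg19 positions of the peaks.
H1-1: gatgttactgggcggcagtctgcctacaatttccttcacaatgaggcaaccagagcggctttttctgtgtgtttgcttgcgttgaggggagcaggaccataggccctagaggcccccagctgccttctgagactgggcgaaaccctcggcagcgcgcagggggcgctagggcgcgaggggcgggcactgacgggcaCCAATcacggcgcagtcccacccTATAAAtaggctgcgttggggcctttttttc
H2AC7: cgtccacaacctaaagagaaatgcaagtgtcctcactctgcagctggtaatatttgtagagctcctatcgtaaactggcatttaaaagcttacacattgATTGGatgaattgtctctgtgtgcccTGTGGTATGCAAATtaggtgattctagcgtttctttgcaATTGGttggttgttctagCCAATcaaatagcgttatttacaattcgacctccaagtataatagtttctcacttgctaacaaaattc
H2BC1: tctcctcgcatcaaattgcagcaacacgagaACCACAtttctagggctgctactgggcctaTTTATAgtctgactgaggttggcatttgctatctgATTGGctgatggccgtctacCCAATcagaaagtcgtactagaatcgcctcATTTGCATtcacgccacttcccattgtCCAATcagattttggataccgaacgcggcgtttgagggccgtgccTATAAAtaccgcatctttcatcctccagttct
H3C2: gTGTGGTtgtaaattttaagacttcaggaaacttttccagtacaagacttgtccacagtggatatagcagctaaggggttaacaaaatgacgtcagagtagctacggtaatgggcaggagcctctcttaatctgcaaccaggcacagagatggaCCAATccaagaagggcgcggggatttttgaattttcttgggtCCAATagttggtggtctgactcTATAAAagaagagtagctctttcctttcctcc
H4C4: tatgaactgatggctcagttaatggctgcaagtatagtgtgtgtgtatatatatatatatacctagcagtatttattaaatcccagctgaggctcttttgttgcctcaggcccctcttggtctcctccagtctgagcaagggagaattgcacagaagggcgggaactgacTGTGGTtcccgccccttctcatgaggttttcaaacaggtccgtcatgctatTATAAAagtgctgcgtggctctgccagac

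In the H1-1, H3C2, H2BC1 and H4C4 sequences the TATA box nearest the gene begins 31, 32, 32 and 29 bases before the start, and the H2AC7 sequence holds none. The H2AC7 sequence holds a RUNX core directly followed by an octamer on the other strand. Across the class members the promoters differed in their letters. The octamer was found in 9 of 11 H2A and 13 of 17 H2B promoters, in 1 of 10 H3 promoters and in none of the 6 H1 and 10 H4 promoters. The CCAAT box was found in all 44 H1, H2A, H2B and H3 promoters but in 3 of the 10 H4 promoters. Over the 54 promoters the octamer was in 42.6%, the CCAAT box in 87.0% and the TATA box in 66.7%, against 1.63%, 32.0% and 10.7% of all 35116 promoters of the table. The RUNX core was in 6 of the 54 (11.1%; H2BC1, H3C2, H4C4, H3C4, H2AC7 and H2BC7), a share close to the 11.0% of all promoters. A match is a description of letters and not a binding site, and histone genes of a class are near copies of one another, so the promoters are not independent of each other.

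H3K4me3 peaks were packed closely in the windows. The 44 peaks gave 11.7 peaks per 100 kb, against 0.402 per 100 kb in the rest of chromosome 6. The median distance from one H3K4me3 peak to the next was 3546 bp within the windows and 50307 bp elsewhere on the chromosome, and 20 of 42 distances (47.6%) were under 1 kb, against 15.1% elsewhere. Of 14154 stretches of 100 kb in the genome that held a peak of any list, the one at 6:26200001 to 26300000 held 14 H3K4me3 peaks, the highest number found. The stretch at 6:26000001 to 26100000 held 11, and that at 6:27800001 to 27900000 held 9.

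The cluster H3K4me3 peaks were narrower than those elsewhere, with a median width of 1051 bp (186 to 4182 bp, n = 44) against 1431 bp for the 686 other H3K4me3 peaks of chromosome 6. This was shared with the H3K4me3 peaks between the windows, whose median was 1033 bp (n = 44). The widest, at 6:26195295 to 26199476, spanned 4182 bp. The next were 6:27804030 to 27808141 (4112 bp), 6:26124393 to 26127790 (3398 bp), 6:26269880 to 26272906 (3027 bp) and 6:26251534 to 26254204 (2671 bp). All 5 held neither BRG1 nor RUNX1, and all 5 lay in H3K27ac in both conditions. The map of the peaks shows H3K4me3 in short groups along both windows, with the last RUNX1 peak centred 157 kb into the first window and no BRG1 peak.

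**Figure D1:**
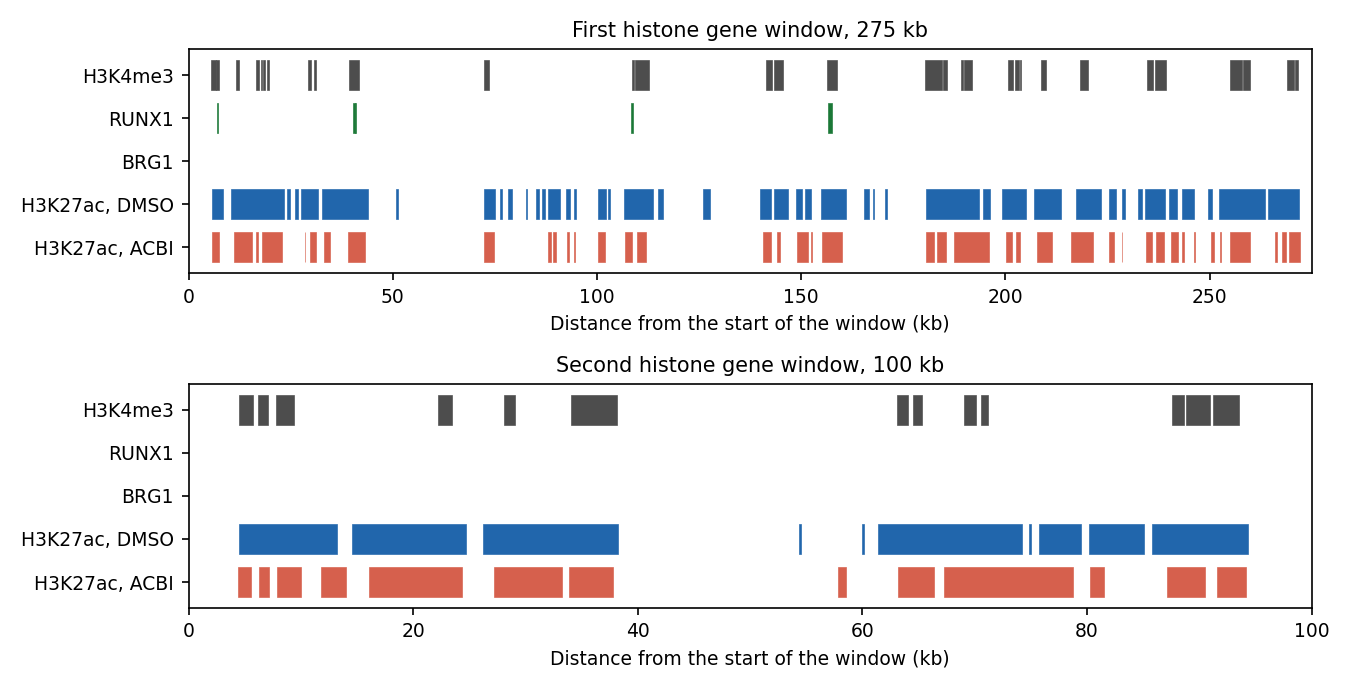
Peaks of the 5 lists in the first (275 kb) and the second (100 kb) histone gene window, as boxes at their distance in kb from the start of the window. There are 44 H3K4me3, 5 RUNX1, 0 BRG1, 53 DMSO and 54 ACBI H3K27ac peaks, and the DMSO boxes are longer than the ACBI boxes at most places.

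No BRG1 peak lay in either window. Of the 44 H3K4me3 peaks, 0 overlapped a BRG1 peak, which allows a share of up to 6.82% by a limit of 3 counts and 8.04% by the wider two-sided exact interval. The share was 34.5% of all H3K4me3 peaks and 30.9% (27.5 to 34.5) of the other H3K4me3 peaks of chromosome 6. The nearest BRG1 peak was between 57529 and 635455 bp away, with a median of 254808 bp, against a median of 37175 bp elsewhere on the chromosome. By width, among other chromosome 6 peaks BRG1 was found on 17.8% of those under 1000 bp, 34.8% of those from 1000 to under 2000 bp and 39.8% of those of 2000 bp or more, while the cluster had 0 of 18, 0 of 16 and 0 of 10. The exact intervals of these 3 counts reach 18.5%, 20.6% and 30.8%. A difference was thus not detectable in the narrowest class, and the shares of the others lie outside the interval in the wider classes. These intervals take each peak as independent, whereas all 44 lie in the BRG1-free runs described below, so they are no test of a difference.

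The stretch without BRG1 ran well past the windows. A BRG1-free run of 697 kb, 6:25963063 to 26659891, surrounded the first window and held 55 H3K4me3 peaks. After it came a BRG1 peak of 150 bp, and then a run of 1751 kb, 6:26660042 to 28411180, that held 49 H3K4me3 peaks and surrounded the second window. These were the highest and the next highest numbers of H3K4me3 peaks in any of the 7421 stretches between neighbouring BRG1 peaks of the genome, whose median was 1. The next, on the X chromosome, held 28. Both runs were among the longer stretches, ranking 996 and 370 of 7421 by length, and a longer stretch has room for more peaks. The stretches longer than either run held fewer H3K4me3 peaks than that run, as the plot of the BRG1-free stretches shows. Elsewhere, stretches dense in H3K4me3 mostly held BRG1. Of 45 other 100 kb stretches with at least 8 H3K4me3 peaks, 6 (13.3%) lacked BRG1 and the median was 2.0 BRG1 peaks, whereas all 4 such stretches of the cluster lacked it. Of the 6, those that start at 6:26500001 and 6:27100001 lie between the windows. Another, at 6:31500001 on the same chromosome, lies beyond them and held 12 H3K4me3 peaks. At lower limits BRG1 was lacking more often: in 22.4% (72 of 321) of other stretches with at least 5 H3K4me3 peaks. With at least 6 it was lacking in 21.8% (36 of 165), and all 5 stretches of the cluster lacked it at both limits.

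**Figure D2:**
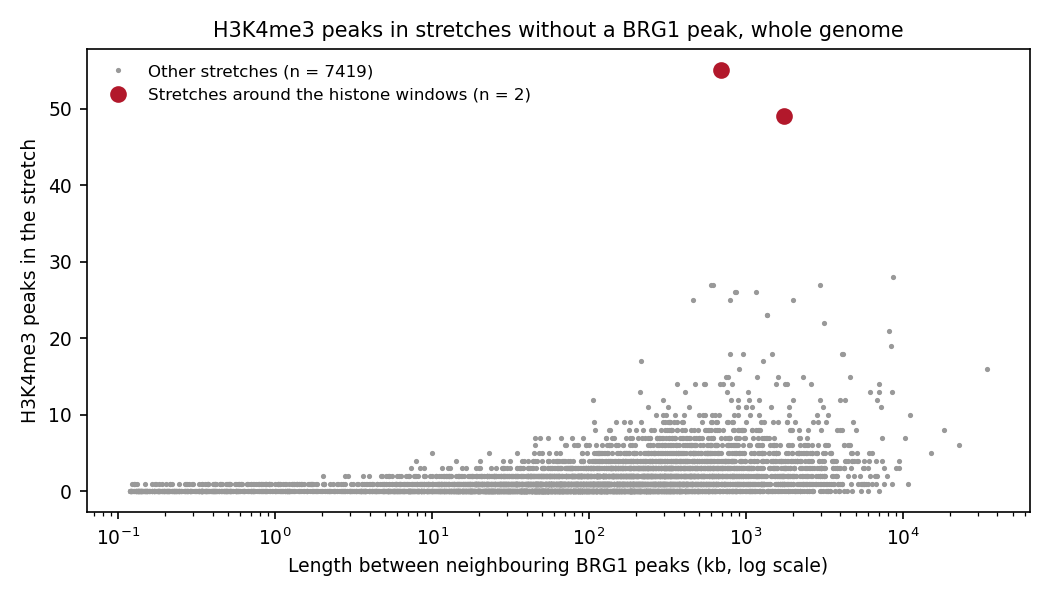
Number of H3K4me3 peaks (vertical axis) in each of the 7421 stretches between neighbouring BRG1 peaks, against the length of the stretch in kb (log axis). The 2 stretches around the histone windows (red) hold 55 and 49 H3K4me3 peaks, above the 28 of the next.

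RUNX1 was found on 4 of the 44 H3K4me3 peaks (9.09%, 2.53 to 21.7), against 58.8% of all H3K4me3 peaks and 58.6% (54.8 to 62.3) of the others on chromosome 6. The shares by width were 2 of 18, 0 of 16 and 2 of 10 in the cluster, and 37.6%, 61.7% and 77.5% of the others for peaks under 1000 bp, from 1000 to under 2000 bp and of 2000 bp or more. None of the 44 held both factors, against 26.4% of the others. The 4 peaks with RUNX1 all lay in the first window, where they were 12.9% of 31 peaks (3.63 to 29.8). In the second window 0 of 13 held RUNX1, which allows up to 23.1% by 3 counts and 24.7% by the exact interval, so the windows cannot be told apart at these numbers. When at least 50% of the H3K4me3 peak had to be covered by RUNX1, the share was 0% in the cluster and 12.5% among the others on chromosome 6. With only peaks of at least 500 bp in every list it was 2.56% in the cluster (1 of 39). The other RUNX1 peaks of chromosome 6 had a median width of 401.5 bp, so this rule also removes many of them. The share of the others was not computed under it, so 2.56% is not to be set beside the 12.5% or 58.6% above.

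The widest of the 5 RUNX1 peaks, 6:26171669 to 26172588 (920 bp), lay wholly inside a 2542 bp H3K4me3 peak, 6:26171302 to 26173843. Next came 6:26055342 to 26055667 (326 bp), which shared the 2421 bp H3K4me3 peak at 6:26054274 to 26056694 with a RUNX1 peak of 208 bp, 109 bp further on. The RUNX1 peak at 6:26021856 to 26022153 (298 bp) lay inside the H3K4me3 peak at 6:26021788 to 26022523. The remaining one, 6:26123417 to 26123691 (275 bp), overlapped the edge of the H3K4me3 peak at 6:26123586 to 26124032 by 106 bp. All 5 thus lay on H3K4me3, against 41.0% of the 1162 other RUNX1 peaks of chromosome 6. All 5 also overlapped H3K27ac in both DMSO and ACBI, where the others did so in 80.6% and 63.3% of cases; with 5 peaks the lower bound of each cluster share is 47.8%. From 6:26172589 to 27094692, 922 kb with 38 H3K4me3 peaks held no RUNX1 peak, the most H3K4me3 peaks in any of the 19869 stretches between neighbouring RUNX1 peaks. The stretch around the second window, 6:27760255 to 28048733, held 15 and ranked the third.

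Between the 2 windows lie 1480 kb with 44 further H3K4me3 peaks. These also had little of either factor, with RUNX1 on 3 (6.82%, 1.43 to 18.7) and BRG1 on 1 (2.27%, 0.0575 to 12.02). They are part of the 686 other peaks of chromosome 6 above. The low share of both factors was therefore shared by the stretch between the windows and was not limited to the windows themselves. In RefSeq order, H2BC11, H2AC11, H2BC12, H4C9 and H2AC12 lie between the butyrophilin genes and PRSS16, apart from the other histone genes. Whether they fall in this stretch was not determined here, so it cannot be taken as free of histone genes. Of its H3K4me3 peaks, 93.2% overlapped H3K27ac in DMSO and 81.8% in ACBI, close to the shares over the other peaks of the chromosome given below.

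**Figure D3:**
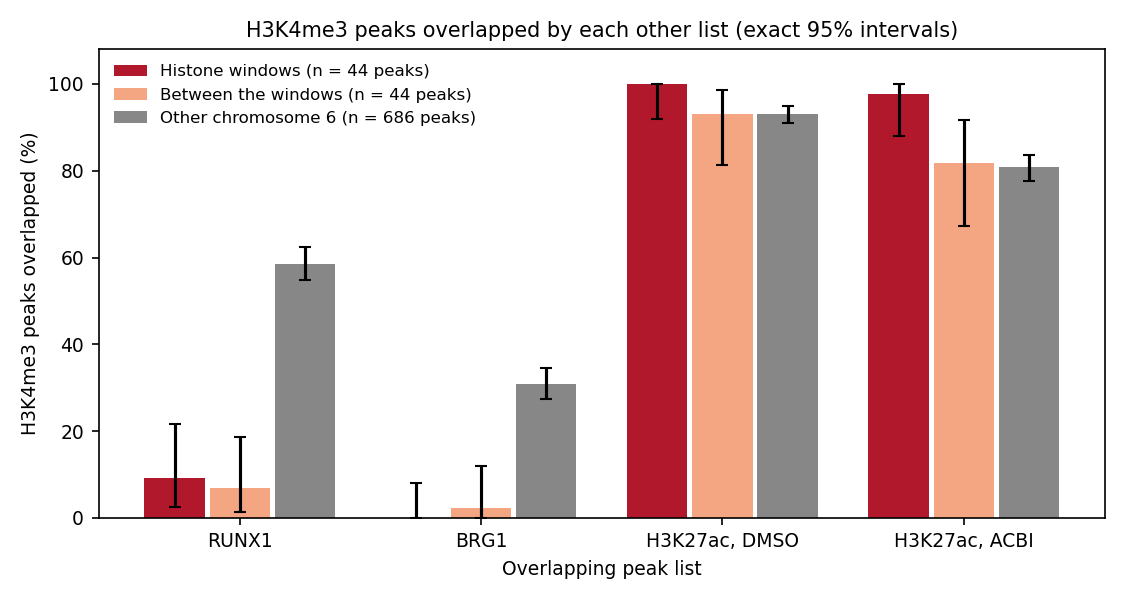
Percent of H3K4me3 peaks overlapped by at least 1 bp by RUNX1, BRG1, DMSO H3K27ac and ACBI H3K27ac peaks in the histone windows (44 peaks), between the windows (44) and on all of chromosome 6 outside the windows (686, which include those between), with exact 95% intervals as error bars. RUNX1 and BRG1 bars are low in both the windows and the stretch between (0 to 9.09%), against 58.6% and 30.9% elsewhere.

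Every H3K4me3 peak of the windows lay in H3K27ac in DMSO: 44 of 44 (92.0 to 100%), against 92.8% of all H3K4me3 peaks and 93.1% of the others on chromosome 6. In ACBI 43 of 44 (97.7%, 88.0 to 99.9) did, against 78.5% and 80.8%. The gap was widest among narrow peaks: of H3K4me3 peaks under 1000 bp, 17 of 18 in the cluster and 56.8% of the others on chromosome 6 overlapped H3K27ac in ACBI. At 2000 bp or more the values were 10 of 10 and 96.3%. In DMSO, 38 of the 44 peaks (86.4%, 72.6 to 94.8) were covered along their whole length, against 36.5% of all peaks and 31.0% of the others on chromosome 6. In ACBI 19 were (43.2%, 28.3 to 59.0), against 20.0% and 18.1%.

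The cover of each H3K4me3 peak was the same or smaller in ACBI. It was smaller at 25 of the 44 peaks and equal at 19 (43.2%), where ACBI cover at least equal to DMSO cover was found at 31.2% of all H3K4me3 peaks in DMSO H3K27ac and 29.7% of the others on chromosome 6. Since 38 of the 44 were wholly covered in DMSO, a larger cover was possible at the other 6 alone. The median share of a peak covered by H3K27ac was 100% in DMSO (87.3 to 100%) and 92.8% in ACBI (0 to 100%), where the others on chromosome 6 had medians of 90.0% and 70.2%. In the first window the ACBI median was 88.3% and the lowest value 0%, and in the second 93.7% and 78.1%. The cover fell to under 50% of the DMSO cover at 3 of 44 peaks (6.82%, 1.43 to 18.7), against 26.7% of all H3K4me3 peaks in DMSO H3K27ac and 23.0% of the others on chromosome 6. At 6:26044297 to 26044938, 47.7% was covered in ACBI. At 6:26158447 to 26160501 the cover was 99.4% in DMSO and 33.7% in ACBI. At 6:26123586 to 26124032, the 447 bp peak edged by RUNX1, it was 100% in DMSO and 0% in ACBI, and the nearest ACBI peak ended 2 bp away. The other 3 peaks with RUNX1 kept 93.8%, 100% and 100% of their length under ACBI H3K27ac.

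**Figure D4:**
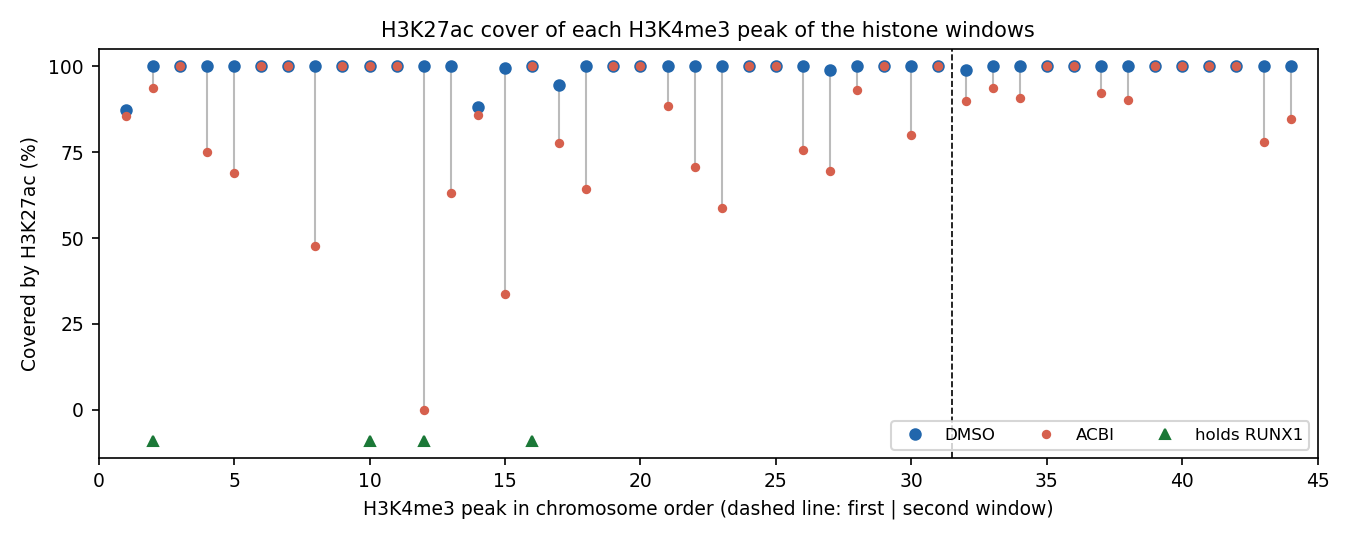
Percent of each of the 44 cluster H3K4me3 peaks (horizontal axis, chromosome order) covered by H3K27ac in DMSO (blue) and ACBI (red), with a line joining the values and triangles at the 4 peaks with RUNX1. DMSO values lie between 87.3 and 100%, and 3 peaks, all in the first window, fall below 50% in ACBI.

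The H3K27ac peaks of the windows were broad in DMSO. Their median width was 1908 bp (159 to 13100 bp, n = 53), against 690 bp for the 4567 other DMSO peaks of chromosome 6. Of the 53, 7 were at least 10 kb wide (13.2%, 5.48 to 25.3), against 1.07% of all DMSO peaks and 0.744% of the others on chromosome 6. H3K4me3 was carried by 21 of 53 (39.6%, 26.5 to 54.0), against 11.7% of all DMSO peaks and 12.4% of the others on chromosome 6. This was shared with the stretch between the windows, where 30 of 64 did (46.9%, 34.3 to 59.8). The 21 had a median width of 7068 bp, where the 567 others with H3K4me3 had 1824 bp, and 13 of them held 2 or more H3K4me3 peaks. The 44 H3K4me3 peaks thus lay in 21 DMSO domains, with at most 5 in 1 domain, at 6:26025295 to 26038354. The widest domain, 6:26195517 to 26208616 (13100 bp), held 4, among them the widest H3K4me3 peak.

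In ACBI the same stretches were covered by shorter pieces. H3K27ac covered 200.6 kb of the windows in DMSO (53.5%) and 129.3 kb in ACBI (34.5%), a ratio of 0.645. The ratio was 0.589 in the first window, where cover went from 139.1 to 82.0 kb, and 0.771 in the second, where it went from 61.4 to 47.4 kb. It was 0.669 between the windows and 0.543 over the rest of chromosome 6. Over all chromosomes it was 0.556, with 52967 peaks in the ACBI list and 90495 in the DMSO list, whereas the windows held 54 and 53. The depth of the libraries is unknown, and the part of depth in this difference was not tested. Of the ACBI cover in the windows 94.4% fell inside DMSO cover, and 7.25 kb fell outside.

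The cover that remained in ACBI lay more on H3K4me3. On H3K4me3 peaks it went from 61.7 kb in DMSO to 53.2 kb in ACBI, a ratio of 0.861. Off them it went from 138.8 to 76.2 kb, a ratio of 0.549. Chromosome 6 as a whole, the windows included, showed the same order, with 0.789 on and 0.502 off H3K4me3. By window the ratios were 0.836 on and 0.480 off in the first, and 0.918 and 0.705 in the second.

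DMSO peaks with no ACBI peak on them, called lost here, were 17 of 53 (32.1%, 19.9 to 46.3), against 59.1% of all DMSO peaks and 60.0% (58.6 to 61.4) of the others on chromosome 6. Between the windows 25 of 64 were lost (39.1%, 27.1 to 52.1), a share inside the interval of the cluster. When a peak counted as kept only with at least 50% of it covered, the shares lost were 50.9% in the cluster and 75.7% among the others on chromosome 6. The cluster share was 20.9% when as many DMSO as ACBI peaks, the widest, were used. The share of the others was not computed under that rule, so 20.9% is not to be set beside the 60.0% above. Of the 21 with H3K4me3 none was lost, which allows up to 14.3% by 3 counts and 16.1% by the exact interval, and 12.7% of the others with H3K4me3 were. Of the 32 without H3K4me3, 17 were lost (53.1%, 34.7 to 70.9), against 66.7% of the others. Lost peaks were narrow, with a median of 674 bp against 3842 bp for the kept ones. Within bands of width the cluster stood near the rest of the chromosome. Under 1000 bp, 14 of 19 were lost (73.7%), against 79.2% of the others, and from 1000 to under 2500 bp 3 of 9 (33.3%), against 36.7%. From 2500 bp to under 10 kb 0 of 18 and 8.01% were lost, and of those of 10 kb or more 0 of 7 and 0 of 34. These bands are small: the exact intervals were 48.8 to 90.9% for 14 of 19 and 7.49 to 70.1% for 3 of 9. The windows had both a lower share lost and wider peaks, and whether width accounts for the share was not tested.

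The widest lost peaks were 6:26140862 to 26142739 (1878 bp), 6:26180278 to 26181577 (1300 bp) and 6:26130057 to 26131273 (1217 bp), none of them on H3K4me3. The nearest ACBI peaks were 12809, 5179 and 3171 bp away. Lost peaks were 15 of 43 in the first window and 2 of 10 in the second. Those of the second window spanned 176 and 178 bp.

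Wide DMSO peaks of the windows were broken up in ACBI, that is, overlapped by 2 or more ACBI peaks. This held for 15 of the 53 (28.3%, 16.8 to 42.3), against 5.64% of all DMSO peaks and 4.49% of the others on chromosome 6. All 15 were at least 2500 bp wide, a width at which 15 of 25 in the windows (60.0%, 38.7 to 78.9) and 30.6% (26.7 to 34.6) of the others were broken up. This class mixes widths in unequal parts: from 2500 bp to under 10 kb the values were 9 of 18 and 27.3%, and the latter lies inside the exact interval of the former (26.02 to 73.98%). Of the 7 domains of 10 kb or more, 6 were overlapped by 2 or more ACBI peaks, against 79.4% of the 34 others. The domain at 6:26195517 to 26208616 kept 79.5% of its length under 3 ACBI peaks, and that at 6:26025295 to 26038354 kept 77.5% under 3. The domains at 6:26047624 to 26058953 (11330 bp) and 6:26267380 to 26278525 (11146 bp) kept 51.3% and 46.9%, each under 2 ACBI peaks. In the second window 6:27796208 to 27808213 (12006 bp) kept 83.1% and 6:27831418 to 27844223 (12806 bp) kept 79.1%, each under 2. The remaining domain, 6:27784572 to 27794676 (10105 bp), kept 81.7% under a lone ACBI peak of 8258 bp. The 3 domains of the second window thus kept 79.1 to 83.1% of their length, and the 4 of the first window 46.9 to 79.5%. The 7 had a median of 79.1%, against 68.3% for the 34 others on chromosome 6 and 79.6% for all 970 DMSO peaks of this width.

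**Figure D5:**
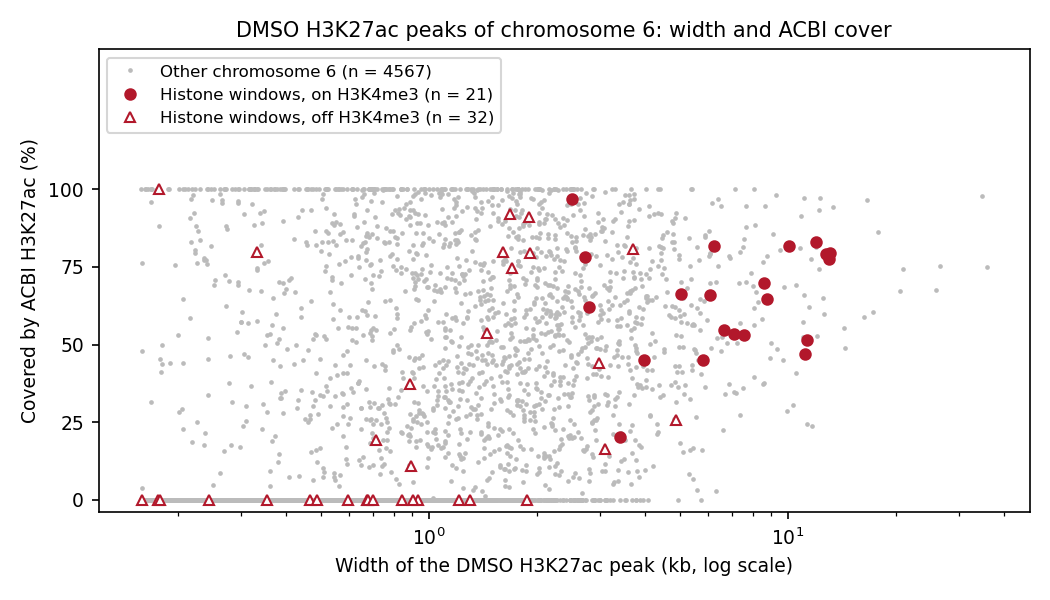
Percent of each DMSO H3K27ac peak of chromosome 6 covered by ACBI H3K27ac, against its width in kb (log axis), with the 53 peaks of the histone windows in red (filled on H3K4me3, open off it) and the 4567 others in grey. The 21 peaks on H3K4me3 lie to the right, at 2512 bp or more, and none of them is at 0%, where 17 of the 32 open triangles lie.

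ACBI peaks without a DMSO peak were rare in the windows: 2 of 54 (3.70%, 0.452 to 12.7), against 21.4% of all ACBI peaks and 23.7% of the others on chromosome 6. Between the windows it was 7 of 53 (13.2%, 5.48 to 25.3). DMSO H3K27ac covered 53.5% of the windows and 3.37% of the rest of chromosome 6. An ACBI peak thus had more DMSO cover to meet in the windows. Gained peaks elsewhere on the chromosome were narrow, with a median of 391 bp. The part of DMSO cover and of peak width in the low share was not tested. The wider of the 2 in the windows was 6:27827849 to 27828541 (693 bp), 1392 bp from the nearest DMSO peak. The other was 6:26167422 to 26167629 (208 bp), 26 bp from a DMSO peak. Neither overlapped H3K4me3. ACBI peaks had a median width of 1724 bp (n = 54), against 733 bp for the 2633 others, and 1 of them, 6:27837250 to 27848716 (11467 bp), was at least 10 kb wide. That peak overlapped 3 DMSO peaks. Of the 54 ACBI peaks 32 carried H3K4me3 (59.3%, 45.0 to 72.4), against 20.0% of the others and 60.4% of those between the windows.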

How the data were processed

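CUT&RUN releases the DNA bound by an antibody target with a tethered nuclease. Of the 9 samples of DND-41 cells, the 5 with a peak list were analysed, and the 4 controls (IgG or input) were not analysed here. The authors deposited each list as chromosome, start, end and name, so the values are positions with no score, count or normalization, and the depth behind a peak is unknown. The submitters' processing notes name the build hg19 with MACS2 and SEACR as callers. MACS2 made the RUNX1 list per the file headers, with "dedup" and "uniq" in the name of its signal track, and both H3K27ac lists hold broad peaks. The aligner, the controls used, the thresholds of the other lists and how they treated reads that map to several histone gene copies were not given in the sources used here. A list with fewer reads or more background can hold fewer or narrower peaks, which was not tested here.

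Peaks overlapped when they shared at least 1 bp. Overlaps and covered lengths were computed with Python 3.11.15, numpy 2.4.6, pandas 2.3.3 and scipy 1.17.1, plotted with matplotlib 3.10.9, checked on simulated peaks, and checked against bedtools 2.31.1 in 20 ordered pairs of lists, with 0 peaks differing. Limits for a count of 0 take 3 counts. A DMSO peak without an ACBI peak is called lost, an ACBI peak without a DMSO peak gained. The members, gene list, motifs and measures were chosen with earlier results of these data known. Sites are named by rule: the 5 widest H3K4me3 peaks, those with both factors or (the 5 widest) with neither, those with H3K27ac in DMSO only, and the 3 widest lost, gained, RUNX1 and BRG1 peaks. The remaining RUNX1 sites, the H3K4me3 peaks with RUNX1 or with little ACBI cover, and the H3K27ac domains of 10 kb or more were named after their values were seen. Width classes, 100 kb stretches, stretches without a factor and the stretch between the windows were also added then. Alternatives were other overlap rules, a minimum width, equal numbers of H3K27ac peaks, each window alone and the whole span.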

Additional observations from a re-analysis of the deposited data

How the results depend on the processing

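Over 9 other settings, 64 of 71 values stayed within the interval of the main value or, for the ratio, within 10% of it, and 7 moved. Some of the 64 could not move, so this count is no measure of robustness. The nearest BRG1 peak lay at least 57529 bp from any cluster H3K4me3 peak, so no overlap rule within the windows could change the BRG1 share. The equal-number setting kept the whole ACBI list of 52967 peaks, so the ACBI cover of H3K4me3 peaks repeated the main value. The share of H3K4me3 peaks with RUNX1 went from 9.09% to 0% when RUNX1 had to cover 50% of the peak and to 0% in the second window alone. It was 2.56% with only peaks of at least 500 bp, a rule under which the share of the others on chromosome 6 was not computed. When RUNX1 within 1 kb counted it was 13.6%, against 63.7% of the others on chromosome 6. The share with H3K27ac in ACBI went from 97.7% to 100% when a peak within 1 kb counted, to 100% with only peaks of at least 500 bp and to 100% in the second window alone. The share of DMSO peaks lost went from 32.1% to 50.9% with the rule of 50% cover, to 20.0% in the second window and to 20.9% with equal numbers of the widest H3K27ac peaks. The share gained, 3.70%, ran from 1.85% to 8.41% over the settings. The ratio of covered length went from 0.645 to 0.771 in the second window alone. With those equal numbers, 52967 in each list, it was 0.655. Over the whole span from the first window to the second, a setting added after seeing the data, 7.95% of H3K4me3 peaks held RUNX1 and 1.14% BRG1. The cause of these moves was not tested. No paired analysis was possible because each group has 1 library. The lists carry no depth, so weak binding of BRG1 or RUNX1 below the callers' thresholds cannot be seen in them.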
